A study of Mus musculus with 31 samples.

Results

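The comparison described here sets the 4 arrays from mice infused with propionate on a low-fat diet against the 4 arrays from mice infused with saline on the same diet, 8 of the 31 arrays of the series, chosen by their titles. It covers all 18820 genes that the array annotation names with 1 symbol per probe set, of which 12795 passed a filter on dim signal and were tested. The material was a scraping of the epithelial lining of the colon of male C57Bl/6J mice, which arrived at 8 weeks of age, ate chow for 2 weeks and were 13 weeks old at the experiment. Both groups were then fed a diet low in fat (LFD), in which fat supplied 10% of the energy, from 2 weeks before the infusions onward. On 6 consecutive days, 80 µL was infused into the colon with a tip inserted 3 cm from the rectum, either saline alone or saline with 100 mM sodium propionate, and tissue was taken 4 h after the last infusion. Parallel groups received the same dose of acetate (3 arrays on LFD) or butyrate (4 arrays on LFD), and the same infusions were given with high-fat feeding (HFD, fat supplying 45% of the energy). The protocol names 6 mice per group and does not tie the arrays to individual mice, so the p-values measure the spread between these samples, part of which may be technical.

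Propionate lies between acetate and butyrate in chain length, and gut bacteria release all 3 when they ferment fibre. It is sensed by G protein-coupled receptors on enteroendocrine, epithelial and immune cells, enters cells through monocarboxylate transporters, and is coupled to coenzyme A. Propionyl-CoA is then carboxylated, isomerised and rearranged by a cobalamin-dependent mutase to succinyl-CoA, which feeds the citric acid cycle and gluconeogenesis. Butyrate, the preferred fuel of colonocytes, takes a different route through beta-oxidation to acetyl-CoA and ketone bodies.

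All values are log2 levels of the deposited normalized data, differences are propionate minus saline on LFD with the standard error of the limma fit, and numbers 1 to 4 name the arrays of a group. The scrapings carried the markers of colonic epithelium. The mean level of 13 colonocyte and epithelial genes (Car1, Slc26a3, Krt20 and others) lay between 11.2 and 11.4 on every array, against 7.06 to 7.11 for the mean of all tested genes. The 8 arrays correlated pairwise with an r of 0.987 to 0.994 over all probe sets, and the 6 lowest pairs all held saline 1. Transcripts of small-intestinal enterocytes (14 genes, among them Apoa1, Apoa4 and Npc1l1, which handle absorbed lipid) stood at a mean of 8.51 on propionate 2 and of 8.35 and 8.11 on saline 2 and 3. The other 5 arrays read 6.50 to 6.70. Adipocyte transcripts were highest on saline 1 and 2 (means of 6.94 and 6.65, other arrays 5.07 to 6.26), and those of B and plasma cells on propionate 4 (5.48, other arrays 4.23 to 5.08). In a scraping, fewer cells of a type and less RNA per cell cannot be told apart.

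**Figure D1:**
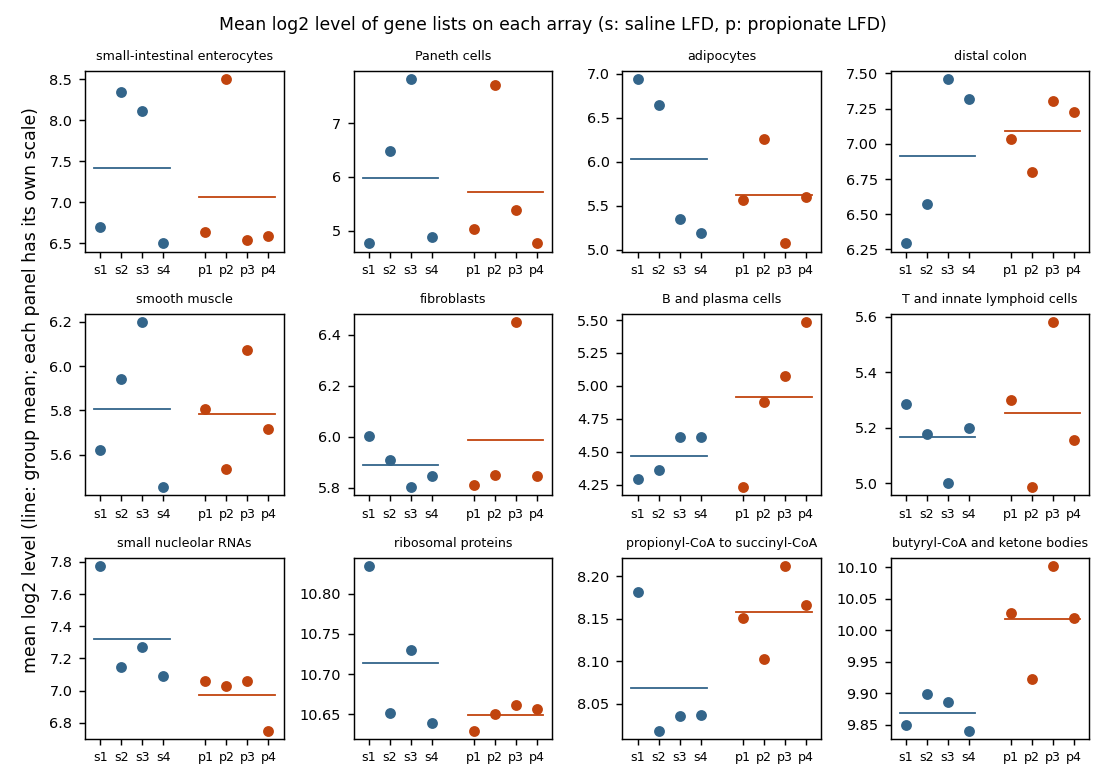
Mean log2 level of 12 gene lists on each of the 8 arrays, with saline LFD arrays (s1 to s4) in blue, propionate LFD arrays (p1 to p4) in orange and a line at each group mean. Small-intestinal transcripts are high on s2, s3 and p2, adipocyte transcripts on s1 and s2, and small nucleolar RNAs on s1 (7.77), while the butyryl-CoA list is higher on all 4 propionate arrays than on any saline array.

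No gene passed an adjusted p of 0.05 in limma between propionate and saline on LFD (0 of 12795, 0%), and the smallest adjusted p was 0.972. At an unadjusted p below 0.05 there were 487 genes (3.81%), 287 higher and 200 lower (2.24% and 1.56%), where 639.75 would be expected if no gene differed. That count was 236 without propionate 3 and 944 without propionate 2, saline 2, saline 3 and 1 saline array on HFD, the 4 arrays high in small-intestinal signal. The arrays of the groups did not overlap for 336 genes (2.63%), 200 higher and 136 lower (1.56% and 1.06%). The differences were small. Their median size was 0.073, the 99th percentile of their size was 0.409, 71 genes (0.555%) reached a size of 0.5 and 1 gene (0.00782%) reached 1 (Defa24).

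Defa24, an antimicrobial peptide of the Paneth cells of the small intestine, read 3.72, 9.26, 3.73 and 2.60 under propionate and 3.35, 7.33, 9.62 and 3.01 under saline. Its high values fell on the same 3 arrays, propionate 2 and saline 2 and 3, that were high in small-intestinal transcripts, and the difference of -1.0 ± 1.20 was smaller than its error. For 89.7% of the genes the 95% interval of the difference lay wholly between -0.5 and 0.5, and for 99% it lay between -1 and 1. The typical interval reached 0.213 to either side of the estimate, more for genes with a wide spread and less for others. Of all tested genes 56.1% had a difference above 0, with a median of 0.02, and the counts over gene groups that follow are to be read against these values.

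Receptors come first in the route of the acid. Ffar2, a receptor of short-chain fatty acids on immune and enteroendocrine cells, read 6.66, 7.03, 6.93 and 6.69 under propionate and 6.77, 6.77, 6.44 and 6.72 under saline. The groups overlapped, with saline 3 alone below the rest, and the difference was 0.15 ± 0.153 (95% interval -0.16 to 0.47). Ffar3, the related receptor with a preference for propionate, read 4.80, 4.93, 4.58 and 4.66 against 4.95, 4.73, 4.63 and 4.75, a difference of -0.03 with an interval of -0.22 to 0.17. Olfr558, an olfactory-type receptor of short branched acids, differed by 0.11 with overlapping arrays. The niacin and butyrate receptor Hcar2 stayed under the filter, with its highest value over all 31 arrays at 3.78. None of these receptors passed the test.

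Of the 8 transporters and chaperones 6 were tested. Slc5a8, the sodium-coupled monocarboxylate transporter of the colonocyte, read 11.04, 11.18, 11.02 and 11.11 under propionate and 11.12, 11.04, 11.22 and 11.01 under saline, which is a difference of -0.01 with a 95% interval of -0.18 to 0.16. Slc16a1, the proton-coupled transporter MCT1, read 10.06, 9.96, 9.94 and 10.20 against 10.38, 10.11, 10.27 and 9.96, with overlap and a difference of -0.14 ± 0.122. Bsg encodes basigin, the chaperone that brings MCT1 to the membrane. It read 10.61, 10.63, 10.59 and 10.57 against 10.34, 10.52, 10.55 and 10.46, every propionate array above every saline array by a narrow margin. The difference was 0.13 ± 0.0622 (limma, unadjusted p = 0.0454, adjusted p = 0.972). Slc16a3 (-0.16), Slc16a7 (0.23) and Emb (0.16), the chaperone embigin, overlapped between the groups, and Slc16a4 and Slc5a12 were under the filter.

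Coupling to coenzyme A is the next step. Acss1, the mitochondrial synthetase, read 9.01, 9.0, 8.97 and 8.92 under propionate and 8.63, 8.66, 8.94 and 8.74 under saline. Propionate 4 lay just under saline 3, and the difference was 0.23 ± 0.12. Acss2, the cytosolic form, differed by 0.14 with saline 3 the highest of the 8 arrays. Acss3, which prefers propionate, and the medium-chain synthetases Acsm1, Acsm2 and Acsm5 stayed under the filter.

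Of the 16 genes that carry propionyl-CoA to succinyl-CoA, cofactor supply included, 14 had a difference above 0, with a median of 0.11 against 0.02 over all tested genes, and none reached an unadjusted p below 0.05. The carboxylase subunits Pcca and Pccb differed by 0.08 and 0.00, the latter with a 95% interval of -0.16 to 0.16. The epimerase Mcee read 10.60, 10.60, 10.79 and 10.63 against 10.66, 10.48, 10.43 and 10.53, with propionate 3 above the rest and saline 1 inside the propionate range, and differed by 0.13. Mmut, the mutase itself, differed by 0.08 (95% interval -0.09 to 0.25). Mmab makes adenosylcobalamin, the cofactor of the mutase, and had the largest difference on the route. It read 6.95, 7.0, 6.94 and 7.30 under propionate and 6.70, 6.53, 6.75 and 6.89 under saline. All propionate arrays lay above all saline arrays, propionate 4 highest, and the difference was 0.33 ± 0.173 (limma, unadjusted p = 0.0651). Mmadhc, which routes cobalamin within the cell, and Suclg1, the shared subunit of succinyl-CoA ligase, were the members below 0, at -0.13 and -0.10, while Suclg2, the GTP-forming partner, differed by 0.18.

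The list mean of these 16 genes was 8.15, 8.10, 8.21 and 8.17 on the propionate arrays and 8.18, 8.02, 8.04 and 8.04 on the saline arrays. Saline 1 thus lay inside the propionate range, and the other saline arrays below it. With the 4 arrays of high small-intestinal signal left out (propionate 2 and saline 2 and 3 here, and 1 saline array on HFD), 11 of the 16 were above 0, with a median of 0.10.

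Propionyl-CoA also comes from branched-chain amino acids and odd-chain fatty acids, and 9 of 10 genes of those sources had a difference above 0, with a median of 0.10. Hibadh of valine breakdown (0.21 ± 0.118) and Bckdhb, a subunit of the branched-chain ketoacid dehydrogenase (0.20 ± 0.107), had the largest, and Bckdha, another subunit of that enzyme, lay at -0.12. No member reached an unadjusted p below 0.05. The list mean was 7.67, 7.69, 7.81 and 7.74 under propionate and 7.65, 7.59, 7.64 and 7.63 under saline, so the groups did not overlap, though the closest arrays stood at 7.65 and 7.67. The median was 0.05 without propionate 3 and 0.14 without saline 1.

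The genes of butyryl-CoA and ketone body breakdown, the route of the longer acid, had the largest median of the route lists with 3 or more tested members, at 0.18. Of the 7 tested genes 6 had a difference above 0, and 4 were at an unadjusted p below 0.05, all higher, against 2.24% of all genes. Echs1, the enoyl-CoA hydratase, read 9.56, 9.43, 9.62 and 9.54 under propionate and 9.20, 9.37, 9.40 and 9.17 under saline, without overlap, a difference of 0.25 ± 0.104 (limma, unadjusted p = 0.0213). Hadh, the next dehydrogenase, read 11.84, 11.78, 11.90 and 11.82 against 11.64, 11.75, 11.67 and 11.64, again without overlap, a difference of 0.16 ± 0.0694. Bdh1, which interconverts the ketone bodies, did not overlap either (0.20 ± 0.0906), and Acat1, the acetoacetyl-CoA thiolase, overlapped slightly (0.18 ± 0.084). All 4 had an adjusted p of 0.972 in limma. Acaa2 (0.22) and Acads (0.07) lay above 0 and Oxct1, which activates acetoacetate, at -0.04.

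Leaving out propionate 3, the array with the highest list mean (10.10, other propionate arrays 9.92 to 10.03, saline arrays 9.84 to 9.90), left 0 of the 7 at an unadjusted p below 0.05. Leaving out saline 1 left 1, and leaving out saline 3, saline 4 or propionate 4 left 2 each. The median stayed between 0.14 and 0.22 when any array was left out. Over all route lists, from receptors to breakdown and the butyryl-CoA list included, 44 of 55 listed genes were tested. Of these 36 had a difference above 0, against 56.1% of all genes. At an unadjusted p below 0.05, 5 were higher, against 2.24% of all genes, and none lower. The 5 were Bsg and 4 genes of the butyryl-CoA list. The median over all route lists was 0.13. Without propionate 3 it was 0.09, with 37 above 0 and none at an unadjusted p below 0.05. Without saline 1 and without propionate 4, 2 and 3 genes were left at that p.

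**Figure D2:**
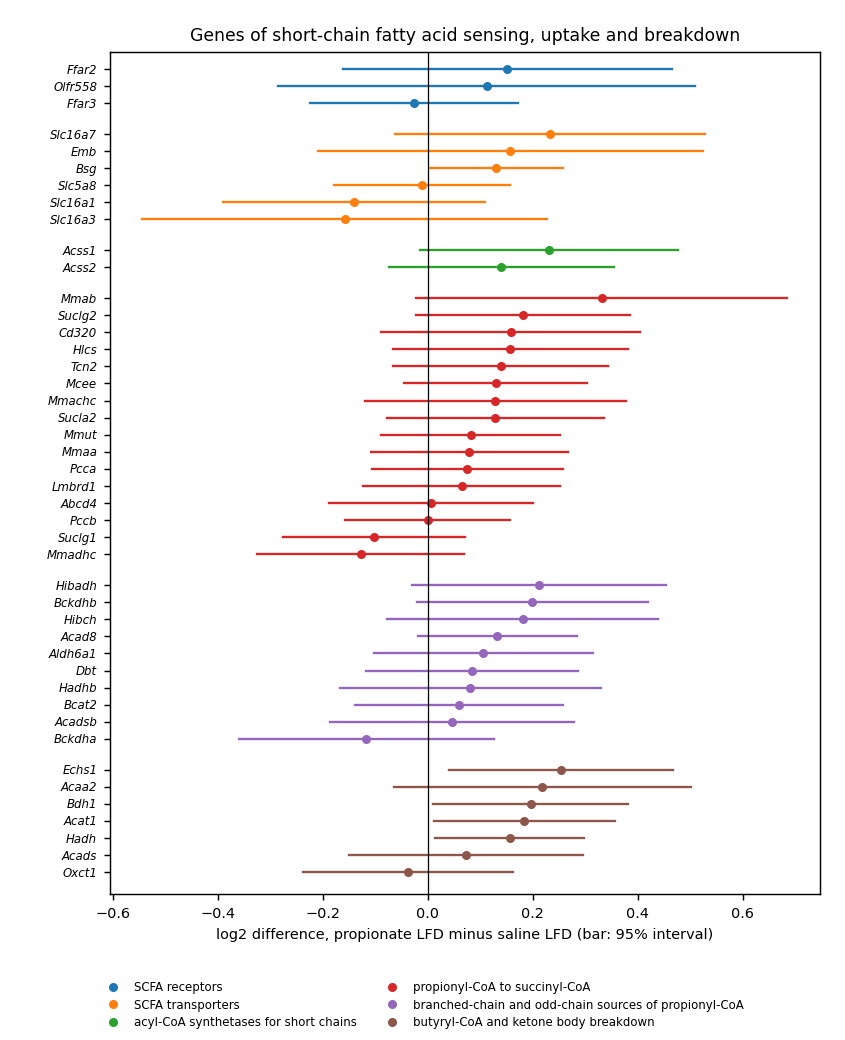
Log2 difference, propionate LFD minus saline LFD, of the 44 tested genes of short-chain fatty acid sensing, uptake and breakdown (x axis), 1 gene per row, coloured by role, with the 95% interval of the limma fit as a bar. Most points lie right of 0 (36 of 44), and only Bsg, Echs1, Bdh1, Acat1 and Hadh have intervals that leave 0 out.

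The genes with the smallest p are given next, the 12 higher and the 12 lower ones, as a description of where the largest differences relative to the spread lay. None passed the adjusted threshold (limma, adjusted p = 0.972 for each). Il7r, the interleukin-7 receptor of lymphocytes, read 4.08, 4.12, 4.49 and 4.11 under propionate and 3.68, 3.69, 3.77 and 3.83 under saline. The groups did not overlap, but 7 of the 8 values were below the filter level of 4.32, and the mean over all T and innate lymphoid markers overlapped between the groups, with Cd3e at a difference of 0.01. Gtf2h4, a subunit of transcription factor IIH, read 6.81, 6.84, 6.99 and 6.90 against 6.59, 6.68, 6.46 and 6.75, a difference of 0.27 ± 0.0753 without overlap. The 8 tested subunits of that factor had a median of 0.05.

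Coq2, the prenyltransferase of coenzyme Q synthesis, read 8.14, 8.18, 8.36 and 8.25 against 7.98, 7.91, 8.04 and 8.07. It did not overlap between the groups and differed by 0.23 ± 0.0684, and of the 12 tested genes of that pathway 8 had a difference above 0, with a median of 0.05. Gsdmcl-ps, a pseudogene of the gasdermin C cluster, had the largest difference of the 24, 0.66 ± 0.189. It read 5.81, 5.88, 5.17 and 5.26 against 4.96, 4.85, 5.31 and 4.37, with saline 3 inside the propionate range. The expressed family member Gsdmc2 differed by 0.12 ± 0.16, with overlapping arrays.

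Adgrg1, an adhesion receptor, was bright and read 9.34, 9.33, 9.42 and 9.27 under propionate and 8.82, 9.05, 9.27 and 8.93 under saline. Saline 3 reached the lowest propionate value, and the difference was 0.32 ± 0.0977. Cnpy4, a chaperone of Toll-like receptors, read 6.21, 6.32, 6.28 and 6.19 against 5.99, 5.77, 5.81 and 6.01, without overlap, a difference of 0.35 ± 0.109. Lgals12, a galectin known from adipocytes, differed by 0.47 ± 0.144, with saline 1 at 7.29 as the lowest array and saline 3 at 8.28 inside the propionate range of 8.17 to 8.42. The saline array lowest in Lgals12 was the one highest in adipocyte transcripts. The other higher genes were Dand5 (0.34), Mageh1 (0.32), Tspan14 (0.28), Trdn (0.23) and Tyw1 (0.20). Mageh1 and Dand5 were near the filter level.

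On the lower side Rbis, a factor of ribosome biogenesis, had the smallest p of all tested genes (limma, unadjusted p = 0.000274, adjusted p = 0.972). It read 5.28, 5.22, 5.39 and 5.20 under propionate and 5.59, 5.62, 5.73 and 5.86 under saline, without overlap, with a difference of -0.43 ± 0.102, or -25.6% on the linear scale. Pex5, the import receptor of peroxisomal matrix proteins, read 6.34, 6.34, 6.26 and 6.25 against 6.64, 6.43, 6.57 and 6.46, a difference of -0.23 ± 0.0634 without overlap. The 14 peroxisome biogenesis genes had a median of 0.02. Mgst3, a microsomal glutathione transferase, read 10.54, 10.58, 10.56 and 10.53 against 11.07, 10.70, 10.68 and 10.67, with saline 1 well above its group and the other saline arrays 0.09 or more above the highest propionate array.

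Tmem151a had the largest difference of the lower genes, -0.48 ± 0.141, with propionate 4 (4.96) inside the saline range. Clic3 (-0.36), Samd4 (-0.29), Kctd14 (-0.29), Ppm1f (-0.29), Panx2 (-0.28), Rab7b (-0.27), Stmn4 (-0.26) and the tight junction gene Cldn19 (-0.19) made up the rest. Samd4, Stmn4, Clic3 and Rab7b lay near or below the filter level in both groups. Of the 24 genes 18 had arrays that did not overlap, a count that follows from their choice by p.

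**Figure D3:**
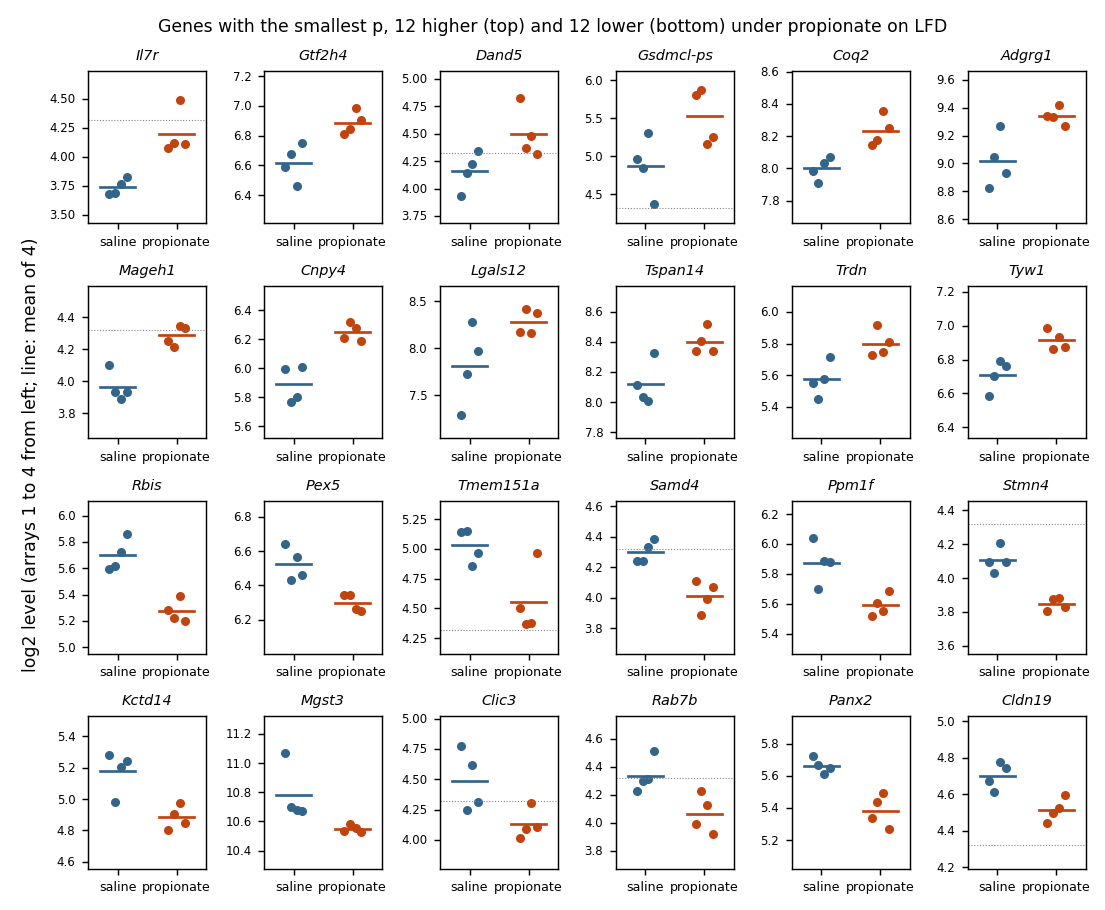
Log2 level on each array (arrays 1 to 4 from left to right within a group, line at the mean of 4) of the 12 higher and 12 lower genes with the smallest unadjusted p, saline LFD in blue and propionate LFD in orange, each panel with its own axis and the filter level of 4.32 dotted where it falls in range. Rbis and Pex5 show no overlap, whereas the ranges of the groups overlap for Gsdmcl-ps, Lgals12 and Tmem151a.

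The functional groups were described by how many members lay on each side of 0. Among groups of energy metabolism, 12 of 14 genes of the citric acid cycle had a difference above 0, with a median of 0.06. Idh3b, a subunit of isocitrate dehydrogenase, differed by 0.17 ± 0.069. Of 11 genes of gluconeogenesis 9 were above 0 (median 0.08), with differences from -0.48 to 0.23. The mitochondrial aspartate transaminase Got2 stood at 0.23, with saline 1 its lowest array. The list means were 8.38 under propionate and 8.35 under saline, with overlapping arrays. The list median was 0.004 without saline 2, 0.04 without saline 4 and 0.15 without saline 3. The 75 subunits of the respiratory chain were mostly below 0 (22 above, median -0.06), and saline 1 stood at a mean of 9.79 against 9.48 to 9.56 on all others. Without saline 1 their median was 0.03.

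Genes driven by PPAR-alpha, the nuclear receptor of fatty acid oxidation, had a median of 0.29, with 6 of 8 above 0. Acot2, a mitochondrial acyl-CoA thioesterase, read 7.84, 6.66, 8.00 and 7.76 under propionate and 6.73, 7.28, 7.11 and 6.73 under saline. Propionate 2 was the lowest of all 8 arrays and the other propionate arrays the highest, a difference of 0.61 ± 0.295 (limma, adjusted p = 0.972). With the 4 arrays of high small-intestinal signal left out, propionate 2 among them, it was 1.14. Angptl4 (0.45 ± 0.266), a secreted inhibitor of lipoprotein lipase, was likewise lowest on propionate 2 within its group, at 5.25 against 5.62 to 6.40. Genes of long-chain fatty acid oxidation had a median of 0.04.

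Lipid synthesis genes lay mostly above 0. Of 20 genes of cholesterol synthesis and uptake 17 did (median 0.15), among them Tm7sf2 (0.29 ± 0.15) and Nsdhl (0.28 ± 0.18), enzymes of sterol maturation, and no member reached an unadjusted p below 0.05. The list mean was 8.81, 8.97, 8.88 and 9.08 under propionate and 8.82, 8.86, 8.57 and 8.93 under saline, with overlap and with saline 3 the lowest array. With the 4 arrays of high small-intestinal signal left out 11 of 20 were above 0 and the median was 0.02, and it was 0.04 without saline 3 alone and 0.09 without propionate 4 alone. Of 14 genes of fatty acid synthesis 11 were above 0 (median 0.14), whereas Thrsp, a regulator of lipogenesis, differed by -0.63 ± 0.271 with values of 5.67 and 5.13 on saline 1 and 2, the arrays high in adipocyte transcripts, and 3.81 to 4.26 on the others. The part of adipose RNA in that value was not tested. The median of the list was 0.07 without saline 3 and 0.09 without propionate 3.

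Small nucleolar RNAs, which guide the chemical modification of ribosomal RNA, had the most members on the lower side at an unadjusted p below 0.05. Of 52 tested members 50 had a difference below 0, 15 of them were past that p against 1.56% of all genes, and the arrays of 6 did not overlap against 1.06%. Their median was -0.33. Snora5c read 5.96, 5.95, 5.81 and 5.77 under propionate and 6.35, 6.05, 6.28 and 6.22 under saline, a difference of -0.35 ± 0.13 without overlap. The list mean was 7.06, 7.03, 7.06 and 6.75 against 7.77, 7.15, 7.27 and 7.09. Saline 1 was far above and propionate 4 below the others, and the nearest arrays of the groups differed by 0.03 (7.06 against 7.09). Without saline 1, 49 of 52 were still below 0, with a median of -0.17, and 1 was at an unadjusted p below 0.05. That count was 5 without propionate 4 and 23 without saline 4. Many of these RNAs are cut from introns of shared host genes, so members are not independent. Ribosomal proteins showed 13 of 69 above 0, with a median of -0.06, and they too were highest on saline 1 (10.83, others 10.63 to 10.73).

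Of 17 interferon response genes 1 had a difference above 0 (median -0.14, and -0.22 without saline 2, -0.08 without saline 3 or without propionate 4). Rtp4 (-0.37 ± 0.26) and Zbp1, a sensor of nucleic acids (-0.24 ± 0.12), had overlapping arrays, and no member reached an unadjusted p below 0.05. Heat shock proteins had a median of -0.15 with 2 of 8 above 0, and it ranged from -0.27 without saline 3 to -0.04 without saline 4. In the barrier, Cldn4, a claudin of tight junctions, read 8.43, 8.28, 7.88 and 8.20 under propionate and 8.73, 8.48, 8.64 and 8.47 under saline, a difference of -0.38 ± 0.186 without overlap, and F11r, junctional adhesion molecule A, differed by -0.13 ± 0.055. Cldn8, a claudin of the distal colon, read 9.27, 9.10, 9.62 and 9.48 against 8.96, 8.76, 8.73 and 9.09, a difference of 0.48 ± 0.262, also without overlap and named for its size. The 15 tight junction genes together had a median of -0.03 with 5 above 0. Ciart, a repressor of the circadian clock, differed by -0.75 ± 0.287 with saline 1 (6.69) inside the propionate range, and the 14 clock genes had a median of -0.03. Class I histone deacetylase genes and Cdkn1a, a gene known to respond to their inhibition, had a median of 0.08 over 5 genes (0.05 without propionate 3), all with an unadjusted p above 0.05.

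Among secretory cells, 2 of 11 goblet cell genes had a difference above 0 (median -0.04, and 0.01 without propionate 3). Tff3, the goblet cell trefoil peptide, read 12.13, 12.11, 12.37 and 12.17 under propionate and 12.55, 12.41, 12.24 and 12.32 under saline, overlapping through propionate 3, a difference of -0.19 ± 0.0744. Muc2 differed by -0.02 ± 0.043. Of 14 enteroendocrine genes 8 were above 0 (median 0.09, and -0.02 without propionate 3). Chga, chromogranin A, differed by 0.32 ± 0.151, and saline 2 lay inside the propionate range. Pyy, the satiety peptide released on short-chain fatty acid sensing, read 9.74, 9.45, 9.83 and 9.78 against 9.80, 9.69, 9.81 and 9.95, a difference of -0.11 with a 95% interval of -0.32 to 0.10, and Gcg, the precursor of GLP-1, differed by 0.10 ± 0.14. Crypt stem and progenitor genes had a median of 0.10, and 5 of 11 were above 0 without saline 1, the array lowest in Sox9 (7.86, others 8.78 to 8.94). Cell cycle genes had a median of 0.10 with 18 of 23 above 0, and 0.01 once the arrays with small-intestinal signal were dropped, and it ranged from 0.01 without saline 3 to 0.21 without saline 4.

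Lymphocyte transcripts varied within the propionate group. B and plasma cell genes had the largest median of the lists with 4 or more tested members, 0.59 over 9 tested genes, of which 8 lay above 0. Cd79b, a chain of the B cell receptor, read 4.50, 5.71, 6.21 and 6.99 under propionate and 4.79, 4.93, 5.35 and 5.29 under saline. Propionate 1 was the lowest of the 8 arrays and propionate 4 the highest, and the difference of 0.77 had a standard error of 0.569. Cd79a (0.70 ± 0.57), Ms4a1 (0.59 ± 0.50) and Cr2 (0.69 ± 0.47) had the same order of arrays under propionate, and Cd22 differed by 0.61 ± 0.345. Transcripts of plasma cells lay on both sides of 0. Jchain, the joining chain of secreted antibodies and the only list member below 0, differed by -0.15 ± 0.24, and Mzb1, a chaperone of antibody assembly, by 0.40 ± 0.193 with overlapping arrays. Igha, the constant region of IgA, is outside the list and was named for its size (0.89 ± 0.402). It read 7.20, 7.19, 6.63 and 6.17 against 4.73, 6.17, 6.69 and 6.04, with saline 1 far below the rest and overlap among the others. Most of these levels were near the filter, and Jchain was the only member with a mean level of at least 6. Without propionate 4 the list median was 0.32. The 6 tested Gimap genes, small GTPases of lymphocytes, were all above 0 (median 0.27), highest on propionate 3 and 4, and the median was 0.16 without propionate 3. T and innate lymphoid genes had a median of 0.07, with propionate 3 highest (5.58), and it ranged from -0.06 without that array to 0.16 without propionate 2. In that list the defining T cell genes Cd3d and Cd4 stayed under the filter. Of the regulatory T cell markers 3 of 7 measured were tested, with a median of 0.09 (0.05 without saline 3), and Il2ra, which marks these cells, was under the filter (mean levels of 3.40 and 3.37).

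Stromal transcripts varied from array to array. Fibroblast genes had a mean of 6.45 on propionate 3 against 5.80 to 6.00 on the other arrays, and Pdgfra differed by 0.50 ± 0.23. Smooth muscle genes had a median of 0.02, and 0.37 with the 4 arrays of high small-intestinal signal left out. All 7 tested adipocyte genes lay below 0 (median -0.33, and -0.09 without saline 1), and all 14 small-intestinal genes did (median -0.31), which ranged from -0.81 without propionate 2 to -0.07 without saline 2. Distal colon genes (Hoxb13, Hoxd11, Scnn1b and others) had a median of 0.17, with saline 1 and 2 lowest, at 6.29 and 6.57 against 6.80 to 7.46, and the median ranged from 0.06 without saline 1 to 0.30 without saline 3. No member of the adipocyte or distal colon lists reached an unadjusted p below 0.05, and 1 small-intestinal gene did (Slc2a2, -0.55 ± 0.27).

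**Figure D4:**
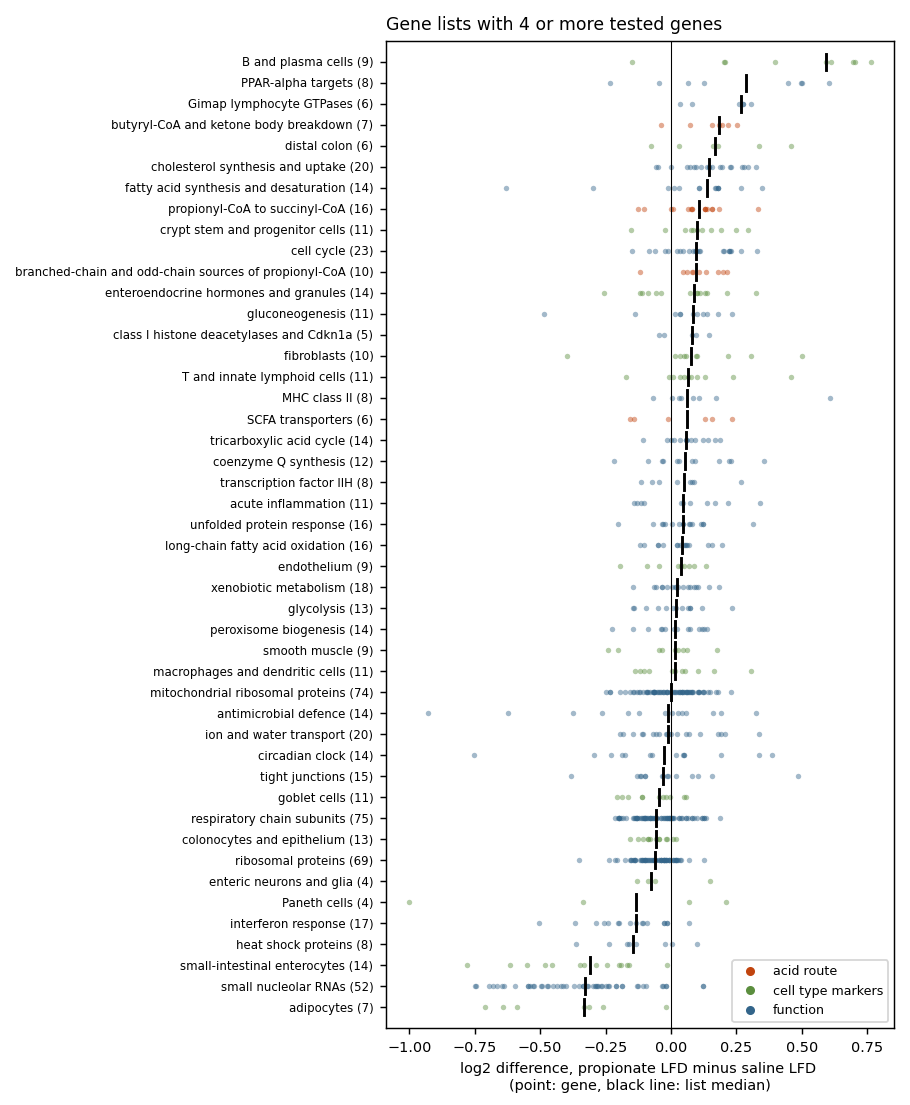
Log2 difference, propionate LFD minus saline LFD, of every tested gene (points) in the lists with 4 or more tested members, ordered by the list median (black line), coloured by kind of list, with the number of tested genes in brackets. B and plasma cells lie at the top (median 0.59), small-intestinal, small nucleolar RNA and adipocyte lists at the bottom (medians -0.31, -0.33 and -0.33), and most lists lie within 0.2 of 0.

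Whether the propionate response differed between the diets was tested as the difference of the differences, LFD minus HFD, with 4 arrays in each of the 4 groups. No gene passed an adjusted p of 0.05 in limma (0 of 12795, 0%), and the smallest adjusted p was 0.141. At an unadjusted p below 0.05 there were 1643 genes (12.8%), 1100 with the larger value on LFD and 543 with the smaller (8.6% and 4.24%), where 639.75 would be expected if no gene differed. The count past the adjusted threshold was 101 with arrays weighted by their quality, 11 with the replicate number as a block and 13 without propionate HFD 4. The HFD response shares no array with the LFD response. Across the 12795 genes the responses correlated with an r of -0.263 and a rho of -0.291, and 38.6% of genes had the same sign, a description across genes, which are not independent replicates.

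The genes named by the smallest p were split by diet as follows. Brca2, a DNA repair gene, differed by 0.43 ± 0.15 on LFD and by -0.52 ± 0.15 on HFD, a diet difference of 0.95 ± 0.211 (limma, adjusted p = 0.141). Hsd11b2, which inactivates glucocorticoids in the colon, differed by 0.20 and -0.57, a diet difference of 0.78 ± 0.175. Lgals12 (0.87), Eral1 (0.61), Ift20 (0.53) and Gtf2h4 (0.47) had positive diet differences too. Rpl24, a ribosomal protein, differed by -0.35 on LFD and by 0.58 on HFD, a diet difference of -0.93 ± 0.228, and Snrnp70 (-0.69), Rbis (-0.64), Rps27 (-0.64), Safb2 (-0.61) and Sncb (-0.49) were on the same side.

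Small nucleolar RNAs again had the most members on the lower side. Of 52, 42 had a diet difference below 0 at an unadjusted p below 0.05, against 4.24% of all genes, with a median of -0.88. Their mean level was 6.98 ± 0.150 (SD, n = 4) under propionate and 7.32 ± 0.312 under saline on LFD, and 7.74 ± 0.253 and 7.10 ± 0.228 on HFD. On HFD the propionate arrays (7.39 to 8.00) lay above the saline arrays (6.81 to 7.30). On LFD saline 1 was the highest of its group (7.77), and without it the LFD median was -0.17. How far the diet difference of this list rests on that array was not tested. Ribosomal proteins had 33 of 69 on that side, with a median diet difference of -0.16.

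Over the 44 tested genes of all route lists, the butyryl-CoA list included, 38 had a diet difference above 0 against 57.2% of all genes. A total of 14 had a positive one at an unadjusted p below 0.05 against 8.6% of all genes, and 1 a negative one (Bckdha, -0.41 ± 0.17). The butyryl-CoA list, the route of the longer acid, gave 7 of the 38 and 4 of the 14. Among its genes Echs1 differed by 0.25 on LFD and by -0.29 on HFD, a diet difference of 0.54 ± 0.15 (limma, unadjusted p = 0.000968). Mmab of the propionyl-CoA list differed by 0.33 and -0.38, a diet difference of 0.71 ± 0.24. Medians on HFD were -0.05 for the propionyl-CoA list, -0.14 for its sources and -0.09 for the butyryl-CoA list. Of 20 cholesterol genes 8 had a positive diet difference at an unadjusted p below 0.05 (median 0.59), with medians of 0.15 on LFD and -0.45 on HFD. Smooth muscle transcripts spread widely over the saline HFD arrays (5.41 to 7.02), and the propionate HFD arrays (5.47 to 5.73) lay inside that range. Distal colon transcripts overlapped between the HFD groups (saline arrays 7.22 to 7.56, propionate arrays 6.55 to 7.37). The smooth muscle list had a median of -0.76 on HFD and a median diet difference of 0.70. For the distal colon list these were -0.57 and 0.63. The part of either in the diet difference was not tested.

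**Figure D5:**
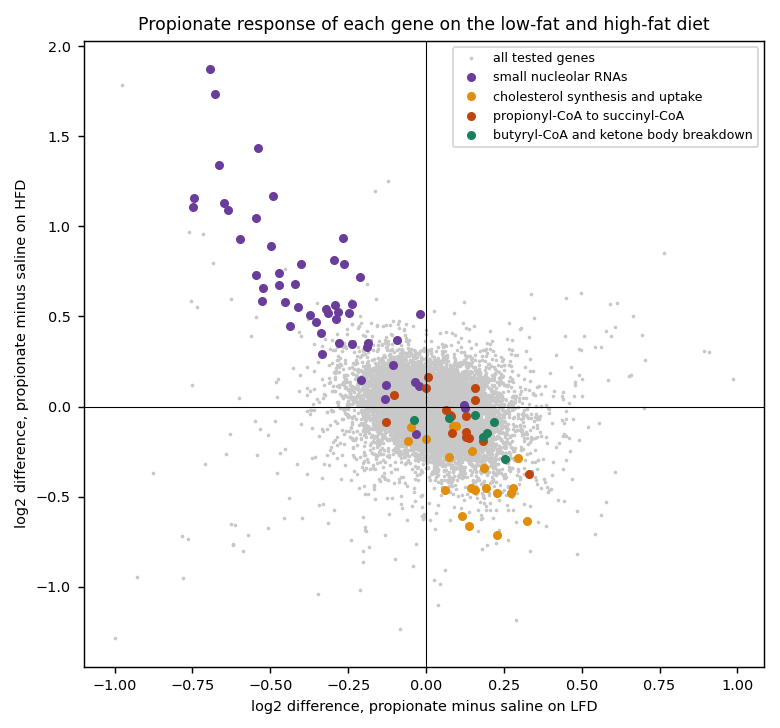
Log2 difference of each of the 12795 tested genes, propionate minus saline, on LFD (x axis) and on HFD (y axis), with 4 gene lists in colour. Small nucleolar RNAs lie mostly in the upper left quadrant (medians -0.33 and 0.56) and cholesterol genes in the lower right (medians 0.15 and -0.45).

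The acids were compared directly on LFD at the same dose and time, in 2 pairs that use no saline array. Acetate is the next shorter and butyrate the next longer straight-chain acid. In limma 0 of 12795 genes (0%) passed an adjusted p of 0.05 for propionate against acetate and 0 (0%) for propionate against butyrate, with smallest adjusted p values of 1.00 and 0.999, so that a further adjustment over the 2 pairs changes nothing. At an unadjusted p below 0.05 there were 473 genes (3.7%, with 2.16% higher and 1.53% lower) and 463 genes (3.62%, with 2.24% higher and 1.38% lower). The typical 95% interval reached 0.230 and 0.213 to either side of the estimate, and it varied from gene to gene. The count against acetate was 243 without acetate 1 and 1132 without acetate 3, and that against butyrate was 737 without butyrate 1.

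Mmab was 0.54 ± 0.19 higher with propionate than with acetate (95% interval 0.16 to 0.93) and 0.41 ± 0.17 higher than with butyrate (0.06 to 0.76), neither past the adjusted threshold. Ffar2 differed by 0.25 (interval -0.09 to 0.59) and 0.18 (-0.14 to 0.49), and Slc5a8 by 0.02 (-0.16 to 0.20) and -0.04 (-0.21 to 0.12). Echs1 differed by 0.20 (-0.03 to 0.43) and 0.09 (-0.13 to 0.30). Against acetate the smallest p values belonged to Fcrlb (-0.37 ± 0.0903), Stmn4 (-0.34), Gng10 (-0.38), Hic2 (-0.42), Ciart (-1.13 ± 0.31) and Msgn1 (-0.41) on the lower side and to Depdc1a (0.52), Lrrc28 (0.30), Akirin2 (0.25) and the mitotic kinase Melk (0.55) among the higher ones. All 23 cell cycle genes were above 0 against acetate, with a median of 0.32, where 55.8% of all genes were. The mean of that list overlapped between the groups, with acetate LFD arrays at 7.02 to 7.49 and propionate LFD arrays at 7.34 to 7.69. How far this median rests on single arrays was not tested, and genes of a list are not independent replicates.

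Against butyrate the genes with the smallest p included Gsdmcl-ps (0.81 ± 0.189), Lpin1, a phosphatidate phosphatase of triglyceride synthesis (0.78 ± 0.21), Fgfbp1 (0.50), Bcl6 (0.41) and Tnfsf13b, the B cell survival factor BAFF (0.37), and on the lower side Rasl10b (-0.41), Msgn1 (-0.36), Spag8 (-0.34), Zfp593 (-0.33) and Amer2 (-0.25). All 20 cholesterol genes were above 0 against either acid (all genes 55.8% and 55%), with medians of 0.28 against acetate and 0.33 against butyrate. So were all 7 genes of the butyryl-CoA list, with medians of 0.10 and 0.06. Whether these medians hold without single arrays was not tested, and the members of a list are not independent replicates. The responses of the acids against saline share the saline arrays. Side by side, the median of the cholesterol list was 0.15 for propionate, -0.14 for acetate and -0.23 for butyrate, that of the butyryl-CoA list 0.18, 0.06 and 0.12, and that of the small nucleolar RNAs -0.33, -0.05 and -0.22. Fatty acid synthesis genes had 0.14, -0.12 and -0.17. Some other lists had medians of the same sign with every acid. B and plasma cell genes had medians of 0.59, 0.41 and 0.40, and interferon response genes -0.14, -0.15 and -0.17. Adipocyte genes had -0.33, -0.45 and -0.38, and small-intestinal genes -0.31, -0.67 and -0.82. In the direct pairs the small-intestinal genes had medians of 0.36 against acetate and 0.42 against butyrate.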

How the data were processed

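Each RNA sample from colon scrapings was measured on 1 single-colour microarray. The authors deposited log2 values made with RMA, per the submitters' processing notes (background correction, quantile normalization across arrays and probe summary). The RMA version was not given in the sources used here, nor was a genome build. Deposited levels span 1.13 to 13.8, the array medians lie at 5.14 to 5.19, and the number of arrays limits the precision.

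Of 35556 probe sets 21218 had 1 symbol, 1881 several and 12457 were not listed in the annotation. For the 1386 genes with more than 1 probe set the brightest was kept. Genes were tested when at least 3 of the 31 arrays reached an intensity of 20 (log2 of 4.32), which left 12795. The limma 3.58.1 model (R 4.3.3) had 1 mean per group over all 8 groups and moderated variances along an intensity trend, with Benjamini-Hochberg adjustment over all tested genes. The code was tested on simulated data. Genes with the smallest p (12 higher and 12 lower, 6 and 6 in the other comparisons, without undescriptive gene models and small RNAs), all route genes, the 2 members with the smallest p of every other list and defining cell markers could be named. The members and lists were chosen with earlier results of these data known. Alternatives were other filters, probe sets, variance models, array weights, normalization, a fit to the compared groups alone, a replicate block, and fits with arrays left out.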

Additional observations from a re-analysis of the deposited data

Results flagged for a closer look

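Within the groups of 4 propionate LFD or saline LFD arrays, 238 sets of values (list means and named genes) were examined for an array far from its group mates, and 14 had one. Chance alone gives about 1 in 20, and no cause was tested.

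On saline 1 the mean of the respiratory chain list was 9.79 (mates 9.48 to 9.54), that of the propionyl-CoA list 8.18 (8.02 to 8.04) and the level of Mgst3 11.1 (10.7 on its mates). On propionate 3 the fibroblast list had a mean of 6.45 (5.81 to 5.85), the colonocyte list 11.2 (11.3 on its mates) and the respiratory chain list 9.56 (9.52 on its mates), and Il7r stood at 4.49 (4.08 to 4.12) and Mcee at 10.8 (10.6 on its mates). On propionate 4 small nucleolar RNAs had a mean of 6.75 (7.03 to 7.06) and Mmab stood at 7.30 (6.94 to 7.0). The small-intestinal list stood at 8.51 on propionate 2 (6.54 to 6.64). The tight junction list had a mean of 9.31 on propionate 1 (9.22 to 9.23), the coenzyme Q list 7.49 on saline 2 (7.56 to 7.57), and Ffar2 stood at 6.44 on saline 3 (6.72 to 6.77).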

How the results depend on the processing

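The count of 0 genes past the adjusted threshold for propionate against saline on LFD held under all 18 alternatives, as it did for propionate against acetate and against butyrate under the alternatives run for each. For the diet difference the count of 0 became 101 with array weights, 1 with the 4 arrays of high small-intestinal signal left out, and 0 to 13 leaving out each array (13 without propionate HFD 4). The cause was not tested. Genes at an unadjusted p below 0.05 numbered 487 for propionate against saline and became 825 without a filter (390 higher, 435 lower), 324 with a mean level of at least 6, 944 with those 4 arrays left out, and 236 (without propionate 3) to 651 leaving out each array. The diet difference had 1643, and 1166 to 2143 leaving out each array. Propionate against acetate had 473, with 819 unfiltered, 219 with the stricter filter and 243 (without acetate 1) to 1132 (without acetate 3). Propionate against butyrate had 463, with 701 unfiltered, 275 with the stricter filter, 718 with array weights and 326 to 737 (without butyrate 1). Fewer or more genes tested accounts for part of the change with the filters.

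Replicate numbers were checked for pairing. Same-numbered propionate and saline arrays on LFD correlated in their deviations with an r of 0.11, 0.23, -0.18 and 0.24. For differently numbered arrays r ran from -0.18 to 0.18. The highest and the lowest r of all pairs were both of same-numbered arrays. These values do not settle whether the numbers pair the mice, and the main fit did not pair them. With the number as a block 0 genes passed for propionate against saline and 11 for the diet difference, with 584 at an unadjusted p below 0.05 in the former.

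No gene of the 24 with the smallest p changed sign, which follows largely from their choice by p in these same arrays. Of 51 list medians 26 kept their sign under every alternative. The B and plasma cell median was -0.15 with the stricter filter, which left 1 gene. Signal over background limits the dim genes, among them Il7r, Stmn4 and the B cell receptor genes.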

Other observations

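Metallothioneins and a vault RNA lay among the larger differences outside the lists, chosen after their values were seen. Mt2, a zinc-binding protein induced by metals and glucocorticoids, read 10.68, 10.35, 11.23 and 10.82 under propionate and 11.68, 11.27, 11.83 and 11.25 under saline, every propionate array below every saline array by as little as 0.02, a difference of -0.73 ± 0.340 (limma, unadjusted p = 0.0399, adjusted p = 0.972). Mt1 differed by -0.38 ± 0.205 with overlapping arrays. Vaultrc5, the mouse vault RNA, read 9.12, 9.10, 9.52 and 8.93 against 10.29, 9.64, 10.01 and 9.76, without overlap, a difference of -0.76 ± 0.338. Rnu3a, a U3 small RNA, differed by -0.98 ± 0.501 with saline 1 at 9.07 and the other arrays at 5.72 to 7.33. In the antimicrobial defence list, 7 of 14 genes were above 0 and 7 below, with a median of -0.01 and differences from -0.93 to 0.33. The ends of that range were Reg3g, an antibacterial lectin of the epithelium (-0.93 ± 0.658), which ran from 8.72 to 10.64 within the propionate group, and Lcn2, lipocalin 2 (0.33 ± 0.294).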
